A study of Mus musculus with 25 samples.

Results

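The mir-106b, mir-93 and mir-25 hairpins lie together in 1 intron of Mcm7, and they were followed here in mouse blood at 5 ages. The rows mmu-mir-106b, mmu-mir-93 and mmu-mir-25 were taken by name and make up 3 of the 1193 microRNA precursors in the deposited count table. Blood was taken from males of the inbred mouse strain C57BL/6 at 2, 9, 15, 24 and 30 months for small RNA sequencing, with no treatment or engineered allele named in the labels. There were 5 libraries per age, which the titles number as different animals, and the 2 month animals were the baseline for the 4 older ages. Each value counts reads assigned to a whole hairpin, so the arms of a hairpin, and mature and precursor RNA, were not separated. None of the 3 members passed edgeR's test at any older age. Levels of mir-93 and mir-106b varied together between mice (Pearson's r = 0.88, Spearman's rho = 0.86). mir-93 and mir-17, from chromosome 14, gave r = 0.96 and rho = 0.89, and the difference between the pairs was not tested. How far reads were shared between the mir-93 and mir-17 rows was not tested either. mir-25, from the same intron as mir-93 and mir-106b, gave correlations near 0 with both under the scaling used.

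Mcm7 encodes a subunit of the helicase that unwinds DNA at replication forks, and its transcription rises when cells enter the division cycle under E2F factors. Its intronic microRNAs are cut from the host transcript as hairpins, trimmed to a short duplex, and loaded into Argonaute, where the seed at the 5′ end pairs with target messages. miR-106b and miR-93 belong to the miR-17 seed family, whose known targets include the cell cycle inhibitor Cdkn1a, also called p21. miR-25 belongs to the miR-25/92a seed family, whose known targets include the pro-apoptotic Bcl2l11, also called Bim. The cluster is a paralog of the miR-17-92 and miR-106a-363 clusters, and mice that lack it are viable.

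The hairpins were all on the minus strand of mouse chromosome 5 in GRCm38, in the order mir-106b, mir-93, mir-25 in the direction of transcription. Mcm7 spans chr5:138164583-138172422 in the GENCODE annotation. The hairpins sit in intron 13 of its transcript of 15 exons, an intron of 748 bases at chr5:138165162-138165909, and 1 shorter retained-intron transcript carries mir-93 and mir-25 in an exon. mir-106b lies at chr5:138165737-138165818, mir-93 at chr5:138165523-138165610 and mir-25 at chr5:138165321-138165404, with gaps of 126 and 118 bases. The whole cluster covers 498 bases, and no gene on the opposite strand overlaps it. The hairpins are printed 5′ to 3′ from RefSeq (GRCm38.p6), to show what was counted, with both annotated mature arms in capitals.

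mir-106b: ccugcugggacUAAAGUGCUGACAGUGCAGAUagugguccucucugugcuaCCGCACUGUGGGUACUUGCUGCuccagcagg
mir-93: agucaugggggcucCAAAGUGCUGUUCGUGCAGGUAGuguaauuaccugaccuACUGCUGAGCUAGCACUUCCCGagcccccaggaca
mir-25: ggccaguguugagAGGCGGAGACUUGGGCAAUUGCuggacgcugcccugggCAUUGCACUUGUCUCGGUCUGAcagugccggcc

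**Figure D1:**
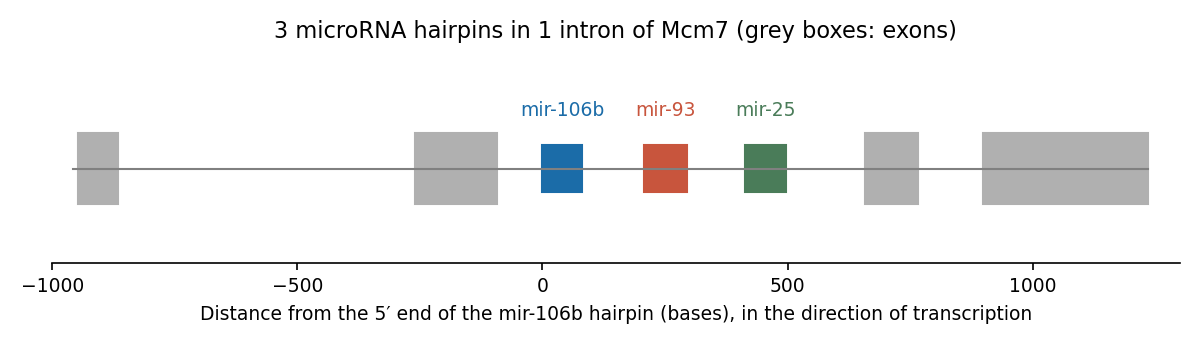
The 3 hairpins and the nearest exons of Mcm7, drawn to scale along the direction of transcription, with distance in bases from the 5′ end of the mir-106b hairpin on the x axis. Grey boxes are exons and coloured boxes are hairpins, and the 3 hairpins fill 498 bases of 1 intron.

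The mature microRNAs below show how alike the members and their seed relatives are in sequence. They are from RefSeq (GRCm38.p6), with the seed (bases 2 to 8) in capitals. miR-17-5p, miR-20a-5p and miR-92a-3p come from the miR-17-92 cluster on chromosome 14, and miR-32-5p comes from chromosome 4.

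miR-106b-5p: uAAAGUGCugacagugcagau
miR-93-5p: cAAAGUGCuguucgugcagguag
miR-17-5p: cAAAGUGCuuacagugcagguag
miR-20a-5p: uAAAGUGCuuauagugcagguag
miR-25-3p: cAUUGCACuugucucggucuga
miR-92a-3p: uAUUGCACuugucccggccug
miR-32-5p: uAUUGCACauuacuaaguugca

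The seed AAAGUGC was held by 7 of 1679 RefSeq mouse mature microRNAs and the seed AUUGCAC by 6. Counted as single-base edits over the whole mature sequence, miR-93-5p was 3 edits from miR-17-5p and 7 from miR-106b-5p, its neighbour in the intron. miR-25-3p was 4 edits from miR-92a-3p and 13 from miR-106b-5p. No source used here says how reads that match several hairpins were assigned. Reads of close relatives such as miR-17-5p and miR-106a-5p, 1 edit apart, may therefore be split between rows. Over all libraries the mir-17 row held 80889 counts and the mir-106a row 169, so at most 169 reads of miR-17-5p went to mir-106a. The reverse was not tested.

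Total counts ran from 4.884 to 24.25 M per library, and 28.3% of the precursors passed the filter on low counts, all 3 members among them. Mean totals were 18.84, 16.15, 18.2, 14.32 and 9.888 M at 2, 9, 15, 24 and 30 months, so the oldest libraries were the shallowest. The column headers name 6 sequencing lanes, of which lane 5 alone held 1 library of each age. The red cell list (mir-451a, mir-144, mir-486a and mir-486b) held 58.2% to 72.2% of all counts, so the markers that define blood RNA were present. Other lists were lower, with summed levels of 55.1 to 208 CPM for mir-223 of neutrophils and monocytes and 64.0 to 775 CPM for mir-150 of lymphocytes. Of the lists from outside blood, muscle held 3.34 to 116 CPM, epithelium 4.51 to 11.6, pancreas 4.80 to 12.3 and brain 1.28 to 3.97. mir-122 of liver held at most 1.13 CPM. The muscle microRNA mir-133a-1 had 116 CPM in replicate 2 at 2 months and 103 CPM in replicate 5 at 15 months. The rest of the muscle list, mir-1a-1 and mir-206, held 4 and 0 counts over all libraries, so mir-133a-1 set the muscle range. CPM are counts relative to library totals scaled by trimmed mean of M-values (TMM). In blood, fewer cells of a type and less of an RNA per cell cannot be told apart.

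mir-25 was by far the most abundant member. It averaged 22322 CPM over the 25 libraries, rank 7 among the precursors tested, below mir-92a-1 at 27077 CPM and above mir-16-1 at 14052 CPM. mir-93 averaged 2820 CPM, rank 21, and mir-106b averaged 1513 CPM, rank 31. The mature products are of similar length and reads were counted per hairpin, so these levels were set side by side with no correction for length, and ligation and amplification of different sequences were not tested. mir-25 exceeded mir-93 in 25 of 25 libraries, and mir-93 exceeded mir-106b in 24 of 25. Per read of mir-93 there were 8.45 reads of mir-25 (geometric mean of the libraries, lowest 4.11 and highest 25.4), and per read of mir-106b there were 14.9 reads of mir-25 (11.1 to 25.5).

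Counting error was small for every member. The fewest reads were 8362 for mir-93, 10836 for mir-106b and 141170 for mir-25, which gives counting errors of at most 1.09%, 0.961% and 0.266% of the value. No molecular identifiers are described, so these figures cover counting error only. Differences between mice of one age were far larger, with a within-age SD on the log2 scale of 0.60 for mir-93, 0.26 for mir-106b and 0.17 for mir-25. Among 152 precursors with a mean of at least 10 CPM, the median SD was 0.28. mir-25 had the 19th smallest spread, mir-106b the 73rd and mir-93 the 134th.

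mir-25, the member with the miR-25/92a seed, had 25820, 20090, 23438, 22404 and 22581 CPM in replicates 1 to 5 at 2 months. At 9 months it had 21161, 21933, 22424, 18123 and 20564 CPM, and at 15 months 22499, 18964, 21473, 20076 and 21363 CPM. The 9 and 15 month mice lay in the lower part of the 2 month range or below it. At 24 months it had 18853, 27270, 20969, 24825 and 24233 CPM, and at 30 months 19905, 19482, 26962, 27091 and 25536 CPM. The groups at 24 and 30 months contained both libraries below the 2 month range and libraries above it, so every older age overlapped 2 months. Means were 22867 ± 2065, 20841 ± 1678, 20875 ± 1372, 23230 ± 3322 and 23795 ± 3797 CPM from 2 to 30 months (SD, n = 5 each). Its full range over the 25 mice was 1.5-fold.

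mir-93, with the miR-17 seed, had 2417, 2231, 4447, 5446 and 3350 CPM in replicates 1 to 5 at 2 months. At 9 months it had 3107, 3457, 2468, 3067 and 2501 CPM, and at 15 months 3655, 2686, 3519, 2823 and 1614 CPM. The 2 highest libraries of all 25 were replicates 4 and 3 at 2 months. At 24 months it had 2462, 1072, 3009, 3039 and 2595 CPM, and at 30 months 2537, 770, 3626, 1546 and 3055 CPM. The 4 lowest libraries were replicates 2 and 4 at 30 months, replicate 2 at 24 months and replicate 5 at 15 months, and the remaining older mice lay within the 2 month range. Means were 3578 ± 1366, 2920 ± 425, 2859 ± 814, 2435 ± 803 and 2307 ± 1150 CPM from 2 to 30 months (SD, n = 5 each). The range over all mice was 7.07-fold, the widest of the 3 members.

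mir-106b, the first hairpin of the cluster and the other one with the miR-17 seed, had 1577, 1224, 1960, 1939 and 1602 CPM at 2 months. At 9 months it had 1647, 1679, 1382, 1498 and 1446 CPM, and at 15 months 1622, 1716, 1597, 1431 and 1224 CPM. Its 2 highest libraries, like those of mir-93, were replicates 3 and 4 at 2 months. At 24 months it had 1296, 1069, 1427, 1906 and 1454 CPM, and at 30 months 1508, 1082, 1848, 1091 and 1593 CPM. The 3 lowest libraries were replicate 2 at 24 months and replicates 2 and 4 at 30 months, which were also the 3 lowest in mir-93. Means were 1660 ± 303, 1531 ± 128, 1518 ± 194, 1430 ± 306 and 1424 ± 333 CPM from 2 to 30 months (SD, n = 5 each), within a range of 1.83-fold.

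**Figure D2:**
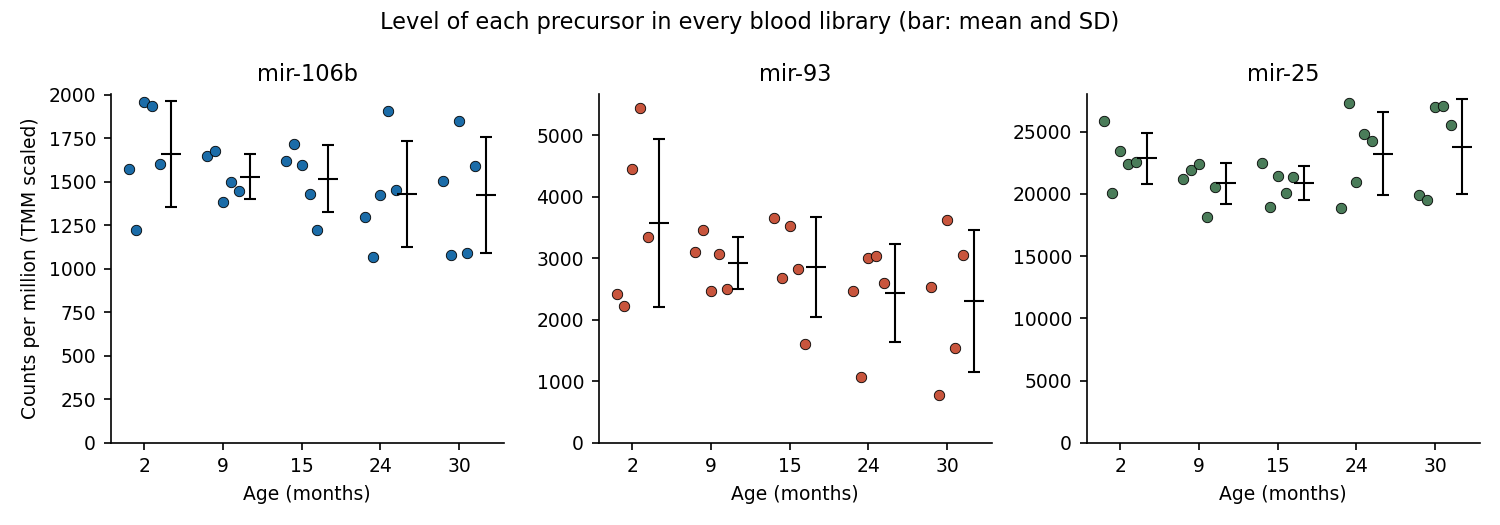
Level of mir-106b, mir-93 and mir-25 in each of the 25 libraries, in TMM-scaled CPM (y axis, from 0), by age in months (x axis). Each point is 1 mouse and bars are the mean and SD of 5 mice, and each older age overlaps 2 months for each member.

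The design asks whether each older age differs from 2 months. At 30 against 2 months, 0 of the 3 members passed edgeR's quasi-likelihood test at a Benjamini-Hochberg adjusted p under 0.05, where 14.2% of the precursors tested did. mir-93 gave the lowest point estimate of the 3, a log2 change of −0.63 (SE 0.33, edgeR adjusted p = 0.221), and 4 of 5 mice at 30 months were below the 2 month mean. An interval of 2 SE around it ran from −1.29 to 0.02, so it includes both no change and a fall beyond 1 log2 unit. mir-106b gave −0.22 (SE 0.16, edgeR adjusted p = 0.409), also with 4 of 5 mice below the 2 month mean. mir-25 gave 0.06 (SE 0.11, edgeR adjusted p = 0.789), with an interval of 2 SE from −0.17 to 0.29 and 2 of 5 mice below. The median over all precursors tested was −0.04. At an unadjusted p under 0.05 edgeR and DESeq2 each had 0 of 3 members and limma-voom 1 of 3, and no tool called a member after adjustment. The share of all precursors at that unadjusted threshold is not given, so counts at it, here and below, lack a background and are not read as results.

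The values at 30 months leaned on single mice. Without replicate 2 at 30 months they were −0.35 for mir-93, −0.079 for mir-106b and 0.18 for mir-25, and without replicate 3 at 30 months that of mir-93 was −0.82. The 3 libraries lowest in mir-93 were replicate 2 at 24 months and replicates 2 and 4 at 30 months. This set was picked after the data were seen. Without it the value at 30 months was −0.16 for mir-93 and 0.05 for mir-106b, and the slope of mir-93 was −0.07 per 10 months. These are older mice picked for low mir-93, and they were also the 3 lowest in mir-106b and mir-144. Higher values of these precursors at the older ages without them, here and below, were thus built in.

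At 24, 15 and 9 months 0 of 3 members had an unadjusted p under 0.05 in edgeR, DESeq2 or limma-voom. At 24 against 2 months 0 of 3 passed, against 12.1% of all tested, with log2 changes of −0.56 for mir-93 (SE 0.33, edgeR adjusted p = 0.304), −0.22 for mir-106b and 0.02 for mir-25. Without replicate 2 at 24 months, the mir-93 value was −0.29 and that of mir-106b was −0.06. At 15 against 2 months 0 of 3 passed, against 1.48% of all tested, with −0.32 for mir-93 and −0.13 for both mir-106b and mir-25. At 9 against 2 months 0 of 3 passed, against 2.07%, with −0.29 for mir-93, −0.12 for mir-106b and −0.13 for mir-25. Without replicate 4 at 2 months the mir-93 values were −0.099 at 15 and −0.091 at 9 months, and without replicate 3 at 2 months those of mir-106b were −0.023 and −0.035. A test of any difference among the 5 ages called 0 of 3, against 7.99% of all tested, with edgeR adjusted p-values of 0.701 for mir-93, 0.883 for mir-106b and 0.686 for mir-25.

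A straight line through all 5 ages also called 0 of the 3 members, where 19.8% of the precursors tested passed. At an unadjusted p under 0.05 the count was 1 of 3 in edgeR, DESeq2 and limma-voom, with no share of all precursors to set beside it. The slope of mir-93 was −0.22 log2 units per 10 months (SE 0.10), with an unadjusted p of 0.0339 in edgeR and an adjusted p of 0.114. The slopes were −0.08 for mir-106b (SE 0.05, edgeR adjusted p = 0.285) and 0.04 for mir-25 (SE 0.04, edgeR adjusted p = 0.481). Without replicate 2 at 30 months the slopes were −0.14 for mir-93 and 0.075 for mir-25, and without replicate 2 at 24 months that of mir-106b was −0.036. The call for mir-25 depended on how libraries were scaled. With counts scaled by library totals alone its slope was 0.15 (edgeR adjusted p = 0.0112), and its log2 change at 24 against 2 months was 0.37 (edgeR adjusted p = 0.0468). That scaling moved the median of all precursors by 0.11 per 10 months and by 0.36 at 24 months, and the mir-25 values stand beside those shifts. Library totals also turned the sign of mir-106b, to 0.05 at 30 months and 0.04 for the slope.

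Ratios between members within a library need no scaling between libraries. The log2 ratio of mir-93 to mir-25 in replicates 1 to 5 was −3.42, −3.17, −2.40, −2.04 and −2.75 at 2 months. At 9 months it was −2.77, −2.67, −3.18, −2.56 and −3.04, and at 15 months −2.62, −2.82, −2.61, −2.83 and −3.73. Most mice from 2 to 15 months thus held between 4 and 10 reads of mir-25 per read of mir-93. At 24 months the ratio was −2.94, −4.67, −2.80, −3.03 and −3.22, and at 30 months −2.97, −4.66, −2.89, −4.13 and −3.06. Replicate 5 at 15 months, replicate 2 at 24 months and replicates 2 and 4 at 30 months lay below the whole 2 month range, and the other older mice lay inside it.

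The mean ratio of mir-93 to mir-25 was −3.54 ± 0.80 at 30 months, against −2.76 ± 0.56 at 2 months (SD, n = 5 each). The difference of −0.79 (SE 0.44) had p = 0.127 in a two-sided exact permutation test and an adjusted p of 0.533 over the 12 ratio tests, for which the smallest p possible is 0.00794. Without replicate 2 at 30 months the difference was −0.51, and without the 3 libraries lowest in mir-93 it was −0.22. A smaller difference was built into how that set was picked. At 24 against 2 months the difference was −0.58 (exact permutation p = 0.222, adjusted 0.533), and −0.24 without replicate 2 at 24 months. At 15 and 9 against 2 months the differences were −0.17 and −0.09.

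mir-106b to mir-25 differed by −0.28 at 30 against 2 months (exact permutation p = 0.183, adjusted 0.533) and by −0.24 at 24 against 2 months, and by 0.01 and 0.03 at 15 and 9 months. Without replicate 4 at 30 months the first was −0.14, and without replicate 2 at 24 months the second was −0.076. mir-106b to mir-93 differed by 0.51 at 30 against 2 months (SE 0.31, exact permutation p = 0.111, adjusted 0.533), and by 0.25 without replicate 2 at 30 months. That mouse, with a log2 ratio of 0.49, was the 1 library of 25 with more mir-106b than mir-93. The spread of this ratio was 0.60 at 30 months, against 0.33 at 2 months (SD, n = 5 each), and that difference in spread was not tested. As shares of the cluster's reads, mir-25 made up 81.5%, 82.4%, 82.7%, 85.5% and 86.7% from 2 to 30 months, and 75.2% to 92.7% in single mice.

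**Figure D3:**
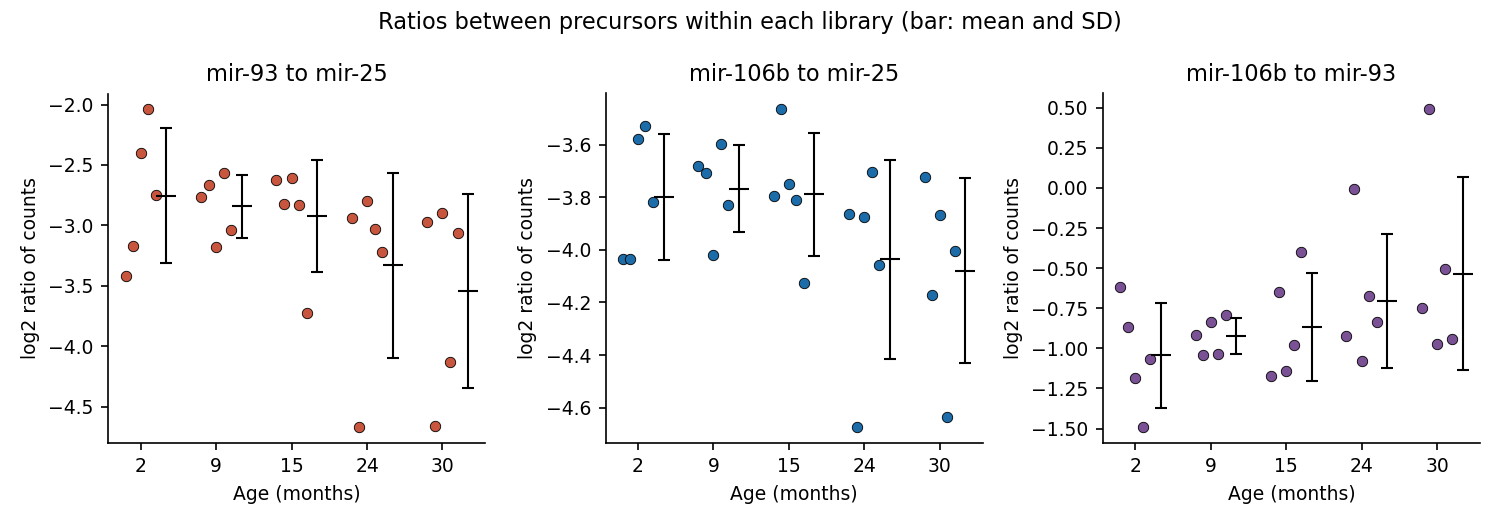
Log2 ratio of counts between members within each library (y axis) by age in months (x axis), for mir-93 to mir-25, mir-106b to mir-25 and mir-106b to mir-93. Each point is 1 mouse and bars are the mean and SD of 5 mice. The mir-93 to mir-25 panel shows replicate 5 at 15 months (−3.73), replicate 2 at 24 months (−4.67) and replicates 2 and 4 at 30 months (−4.66 and −4.13) below every 2 month mouse.

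Levels of mir-93 and mir-106b moved together across mice. Over the 25 libraries their log2 CPM gave Pearson's r = 0.88 and Spearman's rho = 0.86 (permutation p = 1e-05 for each, the smallest that 100000 permutations can give, adjusted 3e-05 over the 3 pairs of members). The r was 0.86 without the 2 mice farthest from the median of mir-93, replicate 2 at 24 months and replicate 2 at 30 months. It was 0.87 with the mean of each age removed and 0.89 with the mean of each lane removed, and 0.78 without the 3 libraries lowest in mir-93. No lane held 6 libraries, so no value within a lane is given.

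mir-25 gave r values near 0 with both. With mir-93 it gave r = −0.01 and rho = 0.11 (permutation p = 0.944 and 0.608, adjusted 0.944 and 0.608), and r = 0.02 without the same 2 mice. With mir-106b it gave r = 0.08 and rho = 0.18 (permutation p = 0.698 and 0.400, adjusted 0.944 and 0.601), and r = 0.19 without those mice. Without the 3 libraries lowest in mir-93, mir-25 and mir-106b gave r = 0.44 (permutation p adjusted over the 3 pairs = 0.063). These r values also depended on the scaling. With library totals, mir-25 and mir-106b gave r = 0.60 (permutation p adjusted over the 3 pairs = 0.00231) and mir-25 and mir-93 gave r = 0.33. With upper quartile factors the same pairs gave r = −0.08 and −0.42. The r of mir-93 and mir-106b was 0.72 to 0.89 over the scalings and over the removal of age and lane means.

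**Figure D4:**
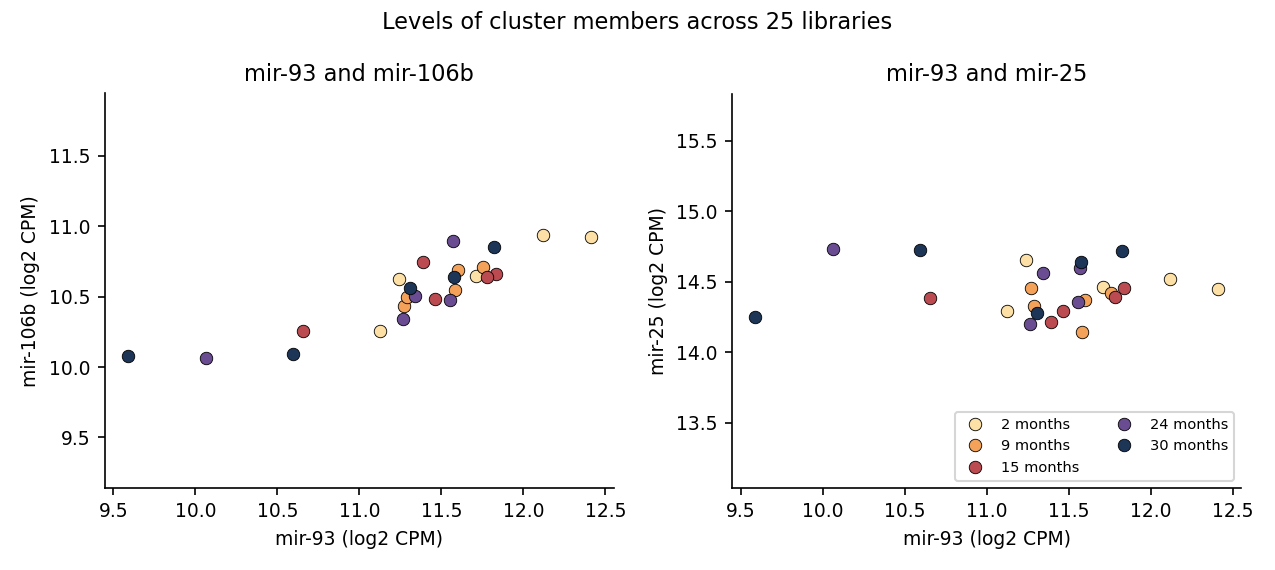
Log2 CPM of mir-93 (x axis) against mir-106b and mir-25 (y axes, of equal span) in 25 libraries, coloured by age. Each point is 1 mouse. mir-106b climbs with mir-93 (r = 0.88), while mir-25 shows no slope along mir-93 (r = −0.01).

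Precursors whose levels were most like each member over the 25 libraries were named by the 5 highest r among 149 others with a mean of at least 10 CPM. For mir-93 these were mir-17 (r = 0.96) and mir-15a (r = 0.96), then mir-301a (r = 0.93), let-7i and mir-141 (r = 0.91 each). All 5 were above the r of 0.88 between mir-93 and mir-106b. For mir-106b they were mir-1839 (r = 0.90), mir-17, mir-16-1 and mir-16-2 (r = 0.89 each) and mir-15a (r = 0.87), the mir-16 hairpins sharing a mature product. For mir-25 the closest were mir-148b (r = 0.46), mir-194-1 (r = 0.45), and mir-186, mir-130b and mir-532 (r = 0.42 each). Its r with mir-148b was 0.81 under library totals. These r values are a description, and the libraries share their scaling factors, lanes and cell mixtures across all precursors.

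The 4 libraries lowest in mir-93 were also the 4 lowest in mir-144, a red cell microRNA made with mir-451a from 1 transcript, at 152, 228, 280 and 447 CPM. Beyond these mice the order differed. Replicate 2 at 2 months ranked 5 from the lowest in mir-93 but 21 in mir-144, at 1111 CPM, and replicate 3 at 30 months ranked 22 in mir-93 but 5 in mir-144. mir-144 averaged 450 ± 258 CPM at 30 months, against 1193 ± 217 CPM at 2 months (SD, n = 5 each), and fell by 1.41 on the log2 scale (SE 0.35, edgeR adjusted p = 0.0101). Without the 3 libraries lowest in mir-93 that change was −0.91 (edgeR adjusted p = 0.053), and with library totals −1.15 (edgeR adjusted p = 0.0533). Those 3 libraries were also the 3 lowest in mir-144, so a smaller fall without them was built in. The abundant red cell precursors were not lowest in the 4 libraries lowest in mir-93. mir-451a ranked 13, 5, 21 and 18 of 25 from the lowest in them, and the red cell list's share of their counts ranked 18, 24, 20 and 25. By age the red cell list held 66.4% to 71.2% at 2 months, 61.2% to 70.8% at 9, 58.2% to 72.2% at 15, 59.7% to 72.1% at 24 and 61.6% to 70.6% at 30 months, with mir-486a and mir-486b giving nearly the same count. On the TMM scale the red cell list averaged 772154, 709005, 704939, 570075 and 633175 CPM from 2 to 30 months. mir-451a had log2 changes of −0.44 at 24 months (edgeR adjusted p = 0.0375) and −0.21 at 30 months (edgeR adjusted p = 0.347). Those of mir-486a were −0.44 at 24 months (edgeR adjusted p = 0.119) and −0.30 at 30 months (edgeR adjusted p = 0.284). The 4 libraries lowest in mir-93 held 10.4 to 17.3 M counts and came from lanes 7, 8, 5 and 6. The part of any of these measures in the low mir-93 values was not tested. mir-223, of neutrophils and monocytes, rose by 1.44 on the log2 scale at 30 against 2 months (edgeR adjusted p = 1.65e-06), and its part in the members' values was not tested. mir-126a, of platelets and endothelium, averaged 5.05 ± 2.05 CPM at 30 months against 12.9 ± 1.77 CPM at 2 months (SD, n = 5 each) and fell by 1.35 on the log2 scale (SE 0.34, edgeR adjusted p = 0.0101). It was lowest of all in replicates 2 and 4 at 30 months, at 2.67 and 3.20 CPM, while replicate 5 at 15 months had 12.7 CPM. The change in mir-126a was −0.92 without the 3 libraries lowest in mir-93 (edgeR adjusted p = 0.121) and −1.09 with library totals (edgeR adjusted p = 0.0554), and its part in the low mir-93 values was not tested.

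The miR-17 seed family in this blood consisted mainly of the 2 Mcm7 members. mir-93 and mir-106b together held 94.2% ± 0.657 of the reads of the 6 hairpins of the family (SD over 25 libraries, 92.9% to 95.6%). mir-93 was the largest of the family in 24 of 25 libraries. Its share averaged 55.8% ± 9.56 at 30 months, against 63.3% ± 4.72 at 2 months (SD, n = 5 each), and ranged from 39.5% to 69.4% over all mice. mir-25 held 33.2% to 44.1% of the reads of the miR-25/92a family hairpins on the list, with 39.4% ± 4.07 at 30 months against 39.3% ± 1.28 at 2 months (SD, n = 5 each). It was below mir-92a-1 in 23 of 25 libraries. mir-92a-1 and mir-92a-2 share a mature product, so their split is uncertain.

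The paralogous miR-17-92 cluster, a promoter of B cell development and proliferation, is transcribed from its own host gene. At 30 against 2 months 0 of its 6 hairpins passed the test, where 14.2% of all precursors tested did, with a median log2 change of −0.30. At an unadjusted p under 0.05 the count was 2 of 6 in edgeR, DESeq2 and limma-voom, with no share of all precursors to set beside it. In the slope with age 2 of 6 passed, both lower, where 9.17% of all precursors tested passed as lower. mir-20a, with the miR-17 seed, had a slope of −0.41 per 10 months (SE 0.15, edgeR adjusted p = 0.0449), and mir-18a had −0.11 (SE 0.04, edgeR adjusted p = 0.0305). Both calls were fragile, since mir-20a passed in 10 of 38 alternative fits and mir-18a in 7 of 38, and leaving out most single libraries ended either call. Without replicate 2 at 30 months the slopes were −0.33 for mir-20a (edgeR adjusted p = 0.102) and −0.08 for mir-18a (edgeR adjusted p = 0.163). mir-20a averaged 38.6 ± 24.8 CPM at 30 months, against 88.3 ± 31.7 CPM at 2 months (SD, n = 5 each). mir-17, also with the miR-17 seed, averaged 172 ± 67.5 CPM at 30 months against 234.3 ± 70.8 CPM at 2 months, and did not pass (log2 change −0.45, SE 0.26, edgeR adjusted p = 0.273). mir-92a-1, with the miR-25/92a seed, averaged 27501 ± 2083 CPM at 30 months against 26725 ± 2831 CPM at 2 months, and did not pass (log2 change 0.04, SE 0.10, edgeR adjusted p = 0.854).

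In the miR-106a-363 cluster on the X chromosome, mir-106a and mir-20b, with the miR-17 seed, reached at most 0.574 and 0.881 CPM as age means. Its mir-92a-2 averaged 8819 ± 666 CPM at 30 months against 8647 ± 1121 CPM at 2 months, and its mir-19b-2 averaged 276 ± 68.3 against 282 ± 36.1 CPM (SD, n = 5 each), though both share a mature product with a hairpin of the miR-17-92 cluster. By the filter 5 of its 6 hairpins could be tested, and 0 of 5 passed in any of the 6 comparisons by edgeR, DESeq2 or limma-voom. In edgeR 1.48% to 19.8% of all precursors tested passed, depending on the comparison. None of the 5 had an unadjusted p under 0.05 either, with no share of all precursors to set beside that count. Over the 6 hairpins of the miR-17 seed family, 0 of 6 passed edgeR's test at 30 against 2 months, where 14.2% of all precursors tested did. By unadjusted p under 0.05 the count was 1 of 6, with no share of all precursors to set beside it. Their log2 changes were negative in 6 of 6, with a median of −0.54, where 55.0% of all precursors tested were negative with a median of −0.04. The count of negatives was 4 of 6 with library totals (median −0.27, and 29.3% of all precursors) and 4 of 6 without the 3 libraries lowest in mir-93 (median −0.083, and 46.4%), with mir-106b and mir-106a positive in both. In the miR-25/92a family 1 of the 5 hairpins on the list fell, where 5.03% of all precursors tested passed as lower at 30 against 2 months. mir-92b, which holds the same seed and averaged 4.43 CPM, was not on that list. mir-32, which shares the miR-25 seed and lies in an intron of another host gene, averaged 3.25 ± 2.09 CPM at 30 months, against 10.6 ± 2.62 CPM at 2 months (SD, n = 5 each). It fell by 1.70 on the log2 scale (SE 0.45, edgeR adjusted p = 0.0163) and had a slope of −0.52 per 10 months (edgeR adjusted p = 0.00844). Without the 3 libraries lowest in mir-93 the change was −1.12 (edgeR adjusted p = 0.053). For any difference among the ages mir-32 did not pass in edgeR (adjusted p = 0.0943) but passed in DESeq2. Its lowest value at 30 months was 0.276 CPM, near the floor of 3 counts. The scale of mir-32 is far below that of mir-25, so the family's summed reads were set by mir-25 and the mir-92a hairpins.

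**Figure D5:**
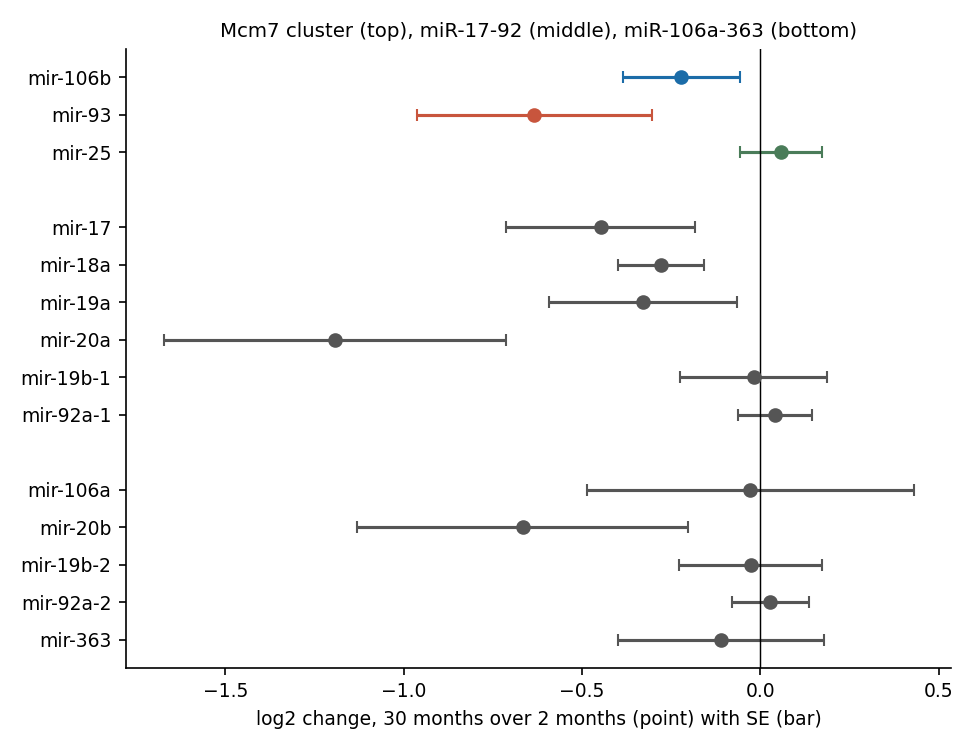
Log2 change at 30 over 2 months (x axis) for the Mcm7 cluster and the hairpins of the 2 paralogous clusters that could be tested, with points for edgeR estimates and bars for 1 SE. mir-93 (−0.63), mir-17 (−0.45) and mir-20a lie left of 0, and mir-25 (0.06) and mir-92a-1 (0.04) lie near 0, with none of the hairpins shown past the threshold.

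Levels were also compared between the clusters across mice, in 5 pairs picked after their values were seen, so no p-value is given. mir-17 already ranked 1 of 149 in likeness to mir-93 and 2 of 149 in likeness to mir-106b. mir-93 and mir-17, from different chromosomes, gave r = 0.96 and rho = 0.89, with r = 0.93 without replicate 2 at 24 months and replicate 2 at 30 months. mir-106b and mir-17 gave r = 0.89 and rho = 0.80, with r = 0.85 without those mice. mir-25 and mir-92a-1 gave r = 0.19 and rho = 0.00, and r = −0.11 and rho = −0.28 without replicate 2 at 24 months and replicate 4 at 30 months. Within the miR-17-92 cluster, mir-17 and mir-20a gave r = 0.88 and rho = 0.81. mir-17 and mir-92a-1 gave r = −0.53 and rho = −0.57, and r = −0.45 without replicate 2 at 24 months and replicate 2 at 30 months. With library totals mir-93 and mir-17 gave r = 0.96 and mir-106b and mir-17 gave r = 0.92. The other pairs were computed with TMM factors alone, and the effect of scaling on them was not tested. How far reads were shared between these rows was not tested.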

How the data were processed

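Per the labels' protocols, the 25 blood libraries were prepared with a TruSeq smallRNA kit. Raw counts per precursor, not normalised, were deposited by the authors as a single table. The submitters' processing notes name SAMtools 1.3.1-9, Trimmomatic 0.36 and bcl2fastq 1.8.4. The aligner, counter, microRNA release, build and strand setting were not given in the sources used here. Libraries were grouped by labelled age, and replicate numbers follow the order of deposit. Of 1193 precursors, 328 were at 0 throughout, and edgeR's filterByExpr kept 28.3%, with at least 99.992% of each library's counts. One edgeR 4.0.16 quasi-likelihood fit (TMM factors, robust, R 4.3.3) over all libraries tested each older age against 2 months, any difference, and a slope per 10 months. An SE is the log2 change divided by the square root of the F statistic. Ratios used log2 of counts plus 0.5. Correlations used 100000 permutations. Alternatives used limma 3.58.1, DESeq2 1.42.0 and other scalings, filters and libraries. No 2 libraries of an age agreed within sampling noise (50 pairs, chi-square per degree of freedom at least 124.9). The members and lists were chosen with earlier results of these data known. Named precursors were the members, their paralogs and seed relatives, the cell type lists, and the 5 precursors most like each member. The scripts were tested on simulated data. Annotation came from GENCODE vM21 and RefSeq.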

Additional observations from a re-analysis of the deposited data

Results flagged for a closer look

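Among 75 checks of a measure in the 5 libraries of an age, 4 found a mouse far from the others of its age. That count is near the 1 in 20 that chance gives. The measures are drawn from the same counts, so the checks are not independent and that rate is only a guide. At 15 months, replicate 5 had a log2 ratio of mir-93 to mir-25 of −3.73, where the nearest other mouse was at −2.83. The same library gave the outlying shares of the cluster's reads, with 88.3% for mir-25 (nearest 82.5%) and 6.67% for mir-93 (nearest 11.5%). At 24 months, replicate 2 had a log2 ratio of mir-93 to mir-25 of −4.67, where the nearest was −3.22.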

How the results depend on the processing

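Of 666 re-computed member tests, 3 had an adjusted p under 0.05, all of mir-25: with library totals 0.37 at 24 months (edgeR adjusted p = 0.0468) and 0.15 per 10 months (0.0112), and, with totals that leave out mir-486a, mir-486b and mir-451a, 0.10 per 10 months (0.0431). Library totals reversed mir-106b to 0.045, 0.158, 0.022 and 0.013 at 30, 24, 15 and 9 months and to 0.036 for the slope, and mir-25 to 0.00046 at 15 months. They moved the median of all precursors by 0.24, 0.36, 0.14 and 0.13 at 30, 24, 15 and 9 months, and split the calls into 51 higher and 6 lower at 30 months, 69 and 3 at 24, 1 and 2 at 15, 3 and 2 at 9, and 80 and 9 for the slope (31 and 17, 26 and 15, 2 and 3, 4 and 3, and 36 and 31 with TMM). Upper quartile factors gave 21 and 3 at 24 months, 1 and 4 at 15, 1 and 3 at 9 and 38 and 18 for the slope. Totals without the 3 red cell precursors gave 41 and 12 at 30 months, 34 and 3 at 24, 2 and 2 at 15, and 56 and 12 for the slope.

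Calls at 30 against 2 months numbered 48, with 15 without a filter, 23 in libraries thinned to the smallest total, and 30 with those ages alone. At 24 months the count was 41, with 72 by library totals, 24 by upper quartile, 24 without a filter, 26 above a mean of 10 CPM and 12 thinned. At 15 months it was 5, with 3 by library totals, by limma-voom, with lane as a term and above 10 CPM, and 2 thinned or with those ages alone. At 9 months it was 7, with 4 by upper quartile, with lane or thinned. For any age it was 27, with 44 by library totals, 17 without a filter, 16 with lane and 9 thinned. For the slope it was 67, with 39 without a filter, 36 above 10 CPM, 28 thinned, 9 without the 2 month group and 41 without the 30 month group. The cause of these shifts was not tested.

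Leaving out replicate 2 at 24 months and replicates 2 and 4 at 30 months, the 3 libraries lowest in mir-93, was chosen after seeing the data. These older mice were also the 3 lowest in mir-106b, so higher values of both at the older ages were built in. Leaving them out gave 25 calls at 30 months and 17 for any age. mir-106b was at 0.047 at 30 months and 0.0046 per 10 months, and mir-93 and mir-25 gave r = 0.18. The log2 ratio of mir-106b to mir-25 reversed to −0.025 at 15 months in thinned libraries, and to −0.040 at 9 and −0.024 at 15 months with lane means removed. mir-106b and mir-25 gave r = 0.60 with library totals and −0.082 with upper quartile factors, and mir-93 and mir-25 gave r = 0.33 with library totals and 0.10 with age means removed.

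Leaving out 1 library at a time, which also changes the precursors kept and the scaling factors, gave 23 to 40 calls at 24 months, 3 to 5 at 15, 3 to 8 at 9, 14 to 33 for any age and 43 to 71 for the slope. The ratio of mir-106b to mir-25 ran from −0.027 to 0.099 at 9 months and −0.070 to 0.095 at 15, and that of mir-93 to mir-25 from −0.25 to 0.091 at 9 and −0.33 to 0.035 at 15 months. The r of mir-25 ran from −0.12 to 0.26 with mir-106b (−0.12 without replicate 1 and 0.26 without replicate 2 at 24 months) and from −0.31 to 0.17 with mir-93 (−0.31 without replicate 2 at 30 months). mir-93 stayed negative against 2 months, and in its slope, under every alternative run. Of other named calls, mir-223 at 30 months passed in 37 of 37 alternatives, mir-144 in 34 of 37, mir-32 in 34 of 36 and its slope in 35 of 37. No paired analysis was possible because each mouse was sampled at 1 age and replicate numbers follow the order of deposit. Depth did not limit the members, whereas mir-106a and mir-20b lay near the floor of 3 counts.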
